A study of Mus musculus with 12 samples.

Results

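The genes of the elastic fibre and of its microfibrils were described in sciatic nerves of 3 groups of mice, as a set of 10 members: Eln, Fbn1, Mfap4, Mfap5, Fbln1, Fbln5, Lox, Loxl1, Emilin1 and Cpz. The set holds 10 of the 43432 genes in the count table. The members were chosen by gene name and known role with their levels in all 12 libraries, and so all 3 comparisons, already known. Their levels and calls are therefore given as a description, and nothing was read from how many of them were called. All 10 passed the filter on low counts, which left 17257 genes, and the 10 together are the whole set. Each was matched on its symbol to 1 Ensembl gene.

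The study asked by RNA-seq how loss of Mtmr2 and treatment with niacin alter gene expression in the nerve. MTMR2 is a phosphoinositide phosphatase whose loss causes CMT4B1, a demyelinating neuropathy with excess myelin folds. Each of the 3 groups held 4 mice: WT control, Mtmr2 KO (Mtmr2 -/-, with treatment given as none in the labels, called vehicle-treated in the study's text and untreated here) and niacin-treated Mtmr2 KO. Each library came from 1 sciatic nerve of 1 mouse. All were about 1 month old, with 3 males and 1 female in each group. The Mtmr2 KO line was made on a 129/SvPas background. Niacin was injected intraperitoneally at 120 mg/kg between postnatal days 10 and 21, followed by gavage with the slow-release form Niacin-SR up to day 30. No treated WT control group was analysed here, so an effect of niacin that does not depend on the genotype cannot be told apart from one that does. Libraries are named by the numbers of the labels, 4497 to 4500 (WT control), 4501 to 4504 (Mtmr2 KO) and 4505 to 4508 (niacin-treated Mtmr2 KO), and no label pairs mice across groups.

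Elastic fibres give stretch and recoil to vessel walls, skin and lung, and to the epineurium and perineurium that ensheath a nerve. Fibroblasts and smooth muscle cells secrete tropoelastin, which is gathered by fibulins, laid on a scaffold of fibrillin microfibrils and cross-linked through its lysines by lysyl oxidases. Microfibrils also carry the latent TGF-beta binding proteins, and emilins and microfibril-associated proteins lie at the border between the elastin core and the scaffold.

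Library totals ranged from 20763951 to 33191106 counts, and each member was counted at least 13 times in every library, the lowest count being that of Cpz. Totals were 26653828 to 28390961 in WT control and 20983641 to 22935378 in niacin-treated libraries, without overlap. The Mtmr2 KO libraries spanned the whole range. An effect of depth on the comparisons was not tested. Levels are CPM, the counts scaled to a common library size with TMM factors. The targeted gene Mtmr2 was at 161, 130, 128 and 137 CPM in the WT control libraries. It was at 71.6, 84.7, 143 and 69.5 CPM in the libraries labelled Mtmr2 KO, and at 66.8, 68.5, 68.3 and 73.5 CPM in the niacin-treated ones. The library labelled Mtmr2 KO 4503 therefore lay inside the range of WT control for the deleted gene, and the log2 fold changes of the members in Mtmr2 KO, with the main counts of the gene lists, are given with and without it. Library 4502 also stood apart, with a sample quality weight of 0.149 in limma, the lowest of the 12, followed by 4503 at 0.288.

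Per base of exon, Lox and Mfap5 were the most abundant members in WT control nerve. Lox, the lysyl oxidase that starts cross-linking, was at 175 ± 20.3 CPM per kb (SD, n = 4). Mfap5, a glycoprotein of microfibrils also called MAGP2, was at 126 ± 10.9 CPM per kb. Eln followed at 61.5 ± 9.26 and Fbn1 at 45 ± 3.91 CPM per kb, and the ranges of these 4 genes did not overlap with those of their neighbours in the order. Fbln5 (27.4 ± 0.984 CPM per kb), Mfap4 (26.9 ± 2.59), Loxl1 (20.4 ± 3.66) and Fbln1 (14.5 ± 2.62) came next, and neighbours among these 4 overlapped. Emilin1 at 3.56 ± 0.21 and Cpz at 2.5 ± 0.814 CPM per kb were the lowest, and Emilin1 lay below every Fbln1 value. The order depends on the length used. Divided by the longest transcript instead of all exons, Mfap5 came to 181 CPM per kb, Lox to 176 and Eln to 129.

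In Mtmr2 KO against WT control nerve, Eln and Cpz fell. The mean level of Eln, which encodes tropoelastin itself, was 0.335 times that of WT control, and that of Cpz, a carboxypeptidase of the extracellular matrix, was 0.176 times. These 2 of 10 members were called lower by edgeR at an adjusted p under 0.05, against 0.220% of all genes tested, and none was called higher, against 0.0464%. At an unadjusted p under 0.05 there were 7 members, all lower, against 7.90% of all genes lower. The 4 libraries of each group did not overlap for 5 members, all lower (Eln, Fbn1, Mfap4, Emilin1 and Cpz), against 5.46% of all genes lower and 3.85% higher. The median log2 fold change was -0.74 over the members and 0.03 over all genes tested. Without library 4503 no member was called, and the median was -0.63.

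Both calls against WT control were close to the threshold. They were lost without 4503, without any of the WT control libraries 4497, 4498, 4499 and 4500, without the niacin-treated libraries 4506, 4507 and 4508, and in an edgeR fit of only the 8 libraries compared. The edgeR call of Cpz was also lost without 4502 (log2 fold change -2.45, adjusted p = 0.0685). With log2 CPM of Xist as a covariate it was lost as well (-2.41, adjusted p = 0.0566). Those fits called 0.446% and 0.0695% of all genes. The left-out fits that lost both calls called between 0% and 0.0615% of all genes, and their log2 fold changes ran from -1.66 to -1.49 for Eln and from -2.75 to -2.27 for Cpz. The fit of the 8 libraries called 0%, with -1.57 and -2.52. DESeq2 on all 12 libraries called Eln, Cpz, Loxl1 and Emilin1, against 3.77% of all genes in either direction, and limma-voom with quality weights called Eln alone, against 0.626%.

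In niacin-treated against untreated Mtmr2 KO nerve, Lox fell, to a mean of 0.334 times the untreated level. Without 4503 the untreated mean was 850 CPM in place of 1224, and the call was lost (log2 fold change -1.05, adjusted p = 0.1). Lox was the only member called by edgeR, so that 1 of 10 was called lower against 0.730% of all genes tested, and none was called higher against 0.695%. At an unadjusted p under 0.05 there were 3 members higher (Eln, Mfap4 and Cpz), against 8.01% of all genes, and 2 lower (Lox and Fbln5), against 12.1%. The groups did not overlap for 1 member higher, Mfap4, against 3.60% of all genes, and for 1 lower, Lox, against 3.40%. The median log2 fold change was 0.26 over the members and -0.04 over all genes tested. This comparison shares the untreated Mtmr2 KO libraries with the preceding one, so opposite signs in them are no separate evidence.

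In niacin-treated Mtmr2 KO against WT control nerve, edgeR on all 12 libraries called no member, and 0 of the 17257 genes tested were called higher or lower (0% each way). At an unadjusted p under 0.05 there were 6 members, all lower (Eln, Fbln1, Fbln5, Lox, Emilin1 and Cpz), against 14.6% of all genes lower and 24.7% in either direction. The groups did not overlap for 5 members lower (Eln, Fbln5, Lox, Loxl1 and Emilin1), against 16.6% of all genes, and for Mfap5 higher, against 14.9%. DESeq2 on all 12 libraries called Eln, Fbln5 and Lox, against 7.56% of all genes in either direction. An edgeR fit of only these 8 libraries called 8 members, 7 lower and Mfap5 higher, against 17.6% of genes lower and 16.3% higher. That fit leaves out the Mtmr2 KO libraries, in which each member had its largest coefficient of variation. Why it called more members was not tested. DESeq2 on the same 8 libraries called 8 members, against 37.8% of all genes in either direction. Limma-voom with quality weights called 7, against 42.4%.

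**Figure D1:**
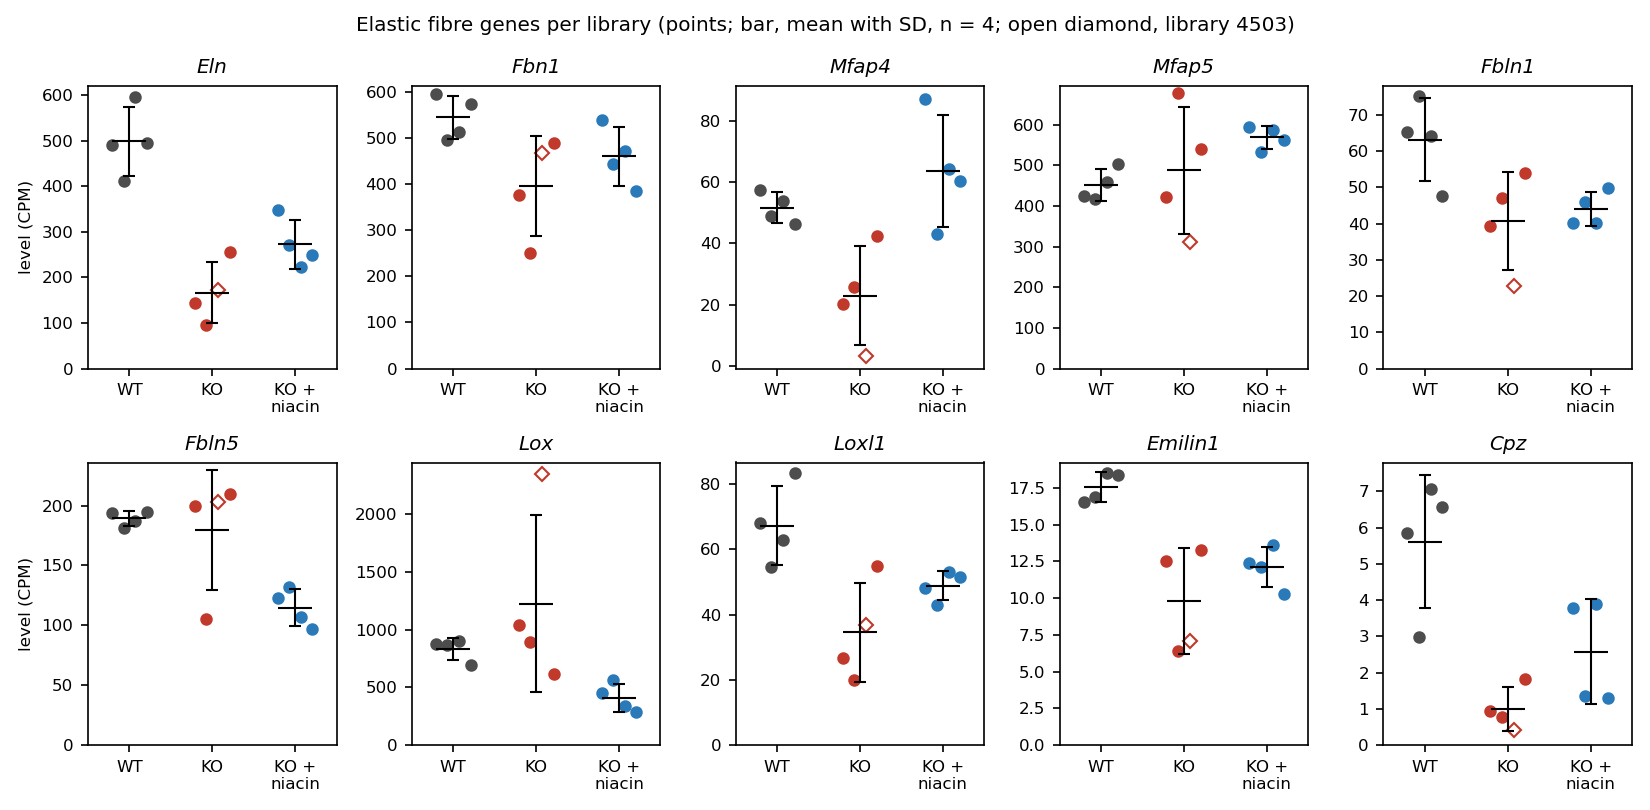
Level of each of the 10 members (CPM, linear axis from 0) in the 4 libraries of each group, as points, with the mean and SD; the open diamond is library 4503. Eln lies between 412 and 595 CPM in WT control and between 94.5 and 256 CPM in Mtmr2 KO, and Lox between 284 and 562 CPM in the niacin-treated libraries.

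Eln (ENSMUSG00000029675, chr5:134702593-134747323, minus strand, GRCm38) encodes tropoelastin, the soluble precursor of the elastin core. WT control libraries held 490, 412, 595 and 496 CPM. Those of untreated Mtmr2 KO held 144, 94.5, 172 and 256 CPM. Those of niacin-treated mice held 348, 270, 222 and 250 CPM. Every library of either Mtmr2 KO group lay below every WT control library, and the Mtmr2 KO groups overlapped through 4504, the highest untreated library.

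Eln fell by 1.58 ± 0.26 (SE) on the log2 scale in Mtmr2 KO (edgeR, adjusted p = 0.0364). Without 4503 the log2 fold change was -1.60 (adjusted p = 0.0726), and the mean of the other 3 libraries, 165 CPM, was close to that of all 4, 167 CPM. Over all alternatives it ran from -1.38 without 4502 to -1.87 without 4504. Niacin-treated minus untreated, the log2 difference was 0.71 ± 0.25 (adjusted p = 0.147), and it reached an adjusted p of 0.0395 without 4504. Niacin-treated minus WT control, it was -0.87 ± 0.25 (adjusted p = 0.101, and 0.00318 in the edgeR fit of those 8 libraries).

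Fbn1 (ENSMUSG00000027204, chr2:125300594-125507993, minus strand) encodes fibrillin-1, the main protein of microfibrils. WT control libraries held 596, 497, 514 and 574 CPM and those of Mtmr2 KO 377, 251, 468 and 489 CPM. The niacin-treated libraries were at 540, 443, 473 and 385 CPM. The Mtmr2 KO libraries all lay below WT control, with 4504 close to 4498, and the niacin-treated ones overlapped with both other groups.

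The log2 fold change of Fbn1 in Mtmr2 KO was -0.46 ± 0.20 (edgeR, adjusted p = 0.249), the smallest of the members whose groups did not overlap, and -0.55 without 4503 (adjusted p = 0.201). Of its exon bases, 20.1% are shared with Gm9913 on the opposite strand, and the sources used here do not say whether counting used the strand. Gm9913 itself was at 0.231 CPM in WT control.

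Mfap4 (ENSMUSG00000042436, chr11:61485431-61488900, plus strand) encodes a microfibril-associated protein that binds elastin and fibrillin. It was at 57.4, 48.8, 53.9 and 46.4 CPM in WT control, and at 20.3, 25.6, 3.37 and 42.4 CPM in Mtmr2 KO. The niacin-treated libraries were at 87.1, 42.9, 64.1 and 60.4 CPM. The untreated Mtmr2 KO libraries lay below both other groups, with 4503 far below the rest, and the highest untreated and lowest treated library were next to each other.

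Mfap4 had the widest spread of the members in Mtmr2 KO, with a coefficient of variation of 70.1% against 9.66% in WT control. Its log2 fold change was -1.18 ± 0.48 in Mtmr2 KO (edgeR, adjusted p = 0.227), and -0.81 without 4503 (adjusted p = 0.15). Niacin-treated minus untreated, it was 1.48 ± 0.48 (adjusted p = 0.119), and 1.11 without 4503 (adjusted p = 0.101). It passed the threshold in that comparison in limma-voom with quality weights (adjusted p = 0.0332) and without 4504 (adjusted p = 0.0484). Of the exon bases of Mfap4, 4.63% are shared with Mapk7 on the opposite strand. Mapk7 was at a mean of 25.8 CPM in WT control, 21.3 in Mtmr2 KO and 18.9 with niacin. The part of this overlap in the level of Mfap4 was not tested.

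Mfap5 (ENSMUSG00000030116, chr6:122505845-122529290, plus strand) binds fibrillins in microfibrils. It ranged from 416 to 503 CPM in WT control, from 311 to 677 CPM in Mtmr2 KO and from 533 to 594 CPM with niacin. All niacin-treated libraries lay above WT control, and the untreated ones spread over both. Its log2 difference from WT control was 0.11 ± 0.20 in Mtmr2 KO (edgeR, adjusted p = 0.798, and 0.27 without 4503) and 0.33 ± 0.20 in niacin-treated nerve (adjusted p = 0.293, and 0.0223 in the edgeR fit of those 8 libraries).

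Fbln5 (ENSMUSG00000021186, chr12:101746565-101819055, minus strand) encodes fibulin-5, which tethers tropoelastin and lysyl oxidases to microfibrils. WT control libraries held 194, 181, 187 and 195 CPM and those of Mtmr2 KO 200, 105, 203 and 210 CPM. In niacin-treated nerve it was 123, 132, 107 and 97.2 CPM. Untreated libraries except 4502 lay above WT control, and every niacin-treated library lay below WT control.

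The log2 fold change of Fbln5 was -0.08 ± 0.19 in Mtmr2 KO (edgeR, adjusted p = 0.859), and -0.14 without 4503. Niacin-treated minus untreated, it was -0.65 ± 0.19 (adjusted p = 0.0974), and -0.85 without 4502 (adjusted p = 0.0037), in a fit that called 23.6% of all genes. Niacin-treated minus WT control, it was -0.72 ± 0.19 (adjusted p = 0.0902), and DESeq2 on all 12 libraries gave an adjusted p of 0.0181.

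Fbln1 (ENSMUSG00000006369, chr15:85205949-85286535, plus strand) encodes fibulin-1, a glycoprotein of elastic fibres and basement membranes. It ranged from 47.7 to 75.3 CPM in WT control, from 22.7 to 53.9 CPM in Mtmr2 KO and from 40.1 to 49.8 CPM with niacin, and all 3 groups overlapped. Library 4503 was again the lowest of the 12. The log2 fold change was -0.64 ± 0.22 in Mtmr2 KO (edgeR, adjusted p = 0.176), and -0.44 without 4503 (adjusted p = 0.198).

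Lox (ENSMUSG00000024529, chr18:52516067-52529867, minus strand) encodes lysyl oxidase, a copper enzyme that oxidises lysines of elastin and collagens. It was at 872, 871, 904 and 691 CPM in the WT control libraries. Untreated Mtmr2 KO libraries held 1038, 895, 2346 and 617 CPM. Treated ones held 452, 562, 340 and 284 CPM. Each niacin-treated library lay below every other library, and 4503, at 2346 CPM, lay far above all others.

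Lox fell by 1.58 ± 0.35 on the log2 scale in niacin-treated against untreated nerve (edgeR, adjusted p = 0.0457). Without 4503 the log2 fold change was -1.05 (adjusted p = 0.1). The call was lost on leaving out any library except 4502 and 4504, and in the edgeR fit of only the 8 libraries (adjusted p = 0.19), where the log2 fold change was -1.57 and 0% of all genes were called. Apart from the fit without 4503, the left-out fits that lost the call had log2 fold changes of -1.78 to -1.44 and called between 0% and 0.777% of all genes. DESeq2 on all 12 libraries gave an adjusted p of 0.000407. Against WT control, the log2 fold change was -1.03 ± 0.34 in niacin-treated nerve (adjusted p = 0.123), and 0.0497 without 4503. In Mtmr2 KO it was 0.55 ± 0.34 (adjusted p = 0.423), which came to 0.02 without 4503.

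Loxl1 (ENSMUSG00000032334, chr9:58287738-58313186, minus strand) encodes the lysyl oxidase homologue tied most closely to elastin. WT control libraries held 68.2, 54.7, 62.7 and 83.4 CPM and those of Mtmr2 KO 26.6, 20, 36.7 and 54.8 CPM. Niacin-treated libraries held 48.1, 42.9, 52.9 and 51.4 CPM. Untreated and WT control libraries overlapped only through 4504 and 4498, while every niacin-treated library lay below WT control.

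The log2 fold change of Loxl1 was -0.96 ± 0.24 in Mtmr2 KO (edgeR, adjusted p = 0.0963), against 0.55 for Lox, and -1.0 without 4503 (adjusted p = 0.129). DESeq2 on all 12 libraries called it (adjusted p = 0.0116). In per-kb levels, the ratio of Lox to Loxl1 was 8.87 ± 2.27 in WT control, 27.4 ± 15 in Mtmr2 KO and 5.94 ± 2.36 with niacin (SD, n = 4). In Mtmr2 KO it ran from 7.77 in 4504 to 44.1 in 4503.

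Emilin1 (ENSMUSG00000029163, chr5:30913402-30921277, plus strand) encodes a glycoprotein at the surface of the elastin core that restrains TGF-beta processing. WT control libraries held 16.5, 16.9, 18.5 and 18.4 CPM and those of Mtmr2 KO 12.5, 6.37, 7.05 and 13.3 CPM. In niacin-treated nerve it was 12.4, 12.1, 13.6 and 10.3 CPM. No library of either Mtmr2 KO group reached the WT control range, which was narrow. The log2 fold change was -0.84 ± 0.21 in Mtmr2 KO (edgeR, adjusted p = 0.0962), and -0.71 without 4503 (adjusted p = 0.14). DESeq2 on all 12 libraries called it (adjusted p = 0.015). In niacin-treated nerve it was -0.54 ± 0.21 against WT control (adjusted p = 0.161).

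Cpz (ENSMUSG00000036596, chr5:35502218-35525698, minus strand) encodes carboxypeptidase Z, a secreted enzyme with a Wnt-binding cysteine-rich domain. It was counted as a member because it was on the list, and whether it acts in elastic fibres was not tested. WT control libraries held 5.85, 2.98, 7.08 and 6.56 CPM and those of Mtmr2 KO 0.941, 0.762, 0.417 and 1.83 CPM. In niacin-treated nerve it was 3.77, 1.34, 3.88 and 1.29 CPM. All untreated libraries lay below WT control, while among the niacin-treated ones 4505 and 4507 lay in the WT control range and 4506 and 4508 in the untreated range. Cpz was the member with the fewest counts, from 13 to 195 per library.

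Cpz fell by 2.53 ± 0.48 on the log2 scale in Mtmr2 KO (edgeR, adjusted p = 0.0497). Without 4503 the log2 fold change was -2.27 (adjusted p = 0.0834), and DESeq2 on all 12 libraries gave an adjusted p of 1.59e-05. Niacin-treated minus untreated, it was 1.40 ± 0.48 (adjusted p = 0.135), and DESeq2 on all 12 libraries called it (adjusted p = 0.0414). Niacin-treated minus WT control, it was -1.13 ± 0.45 (adjusted p = 0.16).

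The start regions of 5 members were found in the RefSeq table for GRCm38.p6. Those of Fbn1 and Emilin1 lie in annotated exons and are not printed. The other 3 belong to Cpz, which fell in Mtmr2 KO, and to the fibulins Fbln1 and Fbln5, so that a member called lower can be read beside members that were not. Each window covers 178 bases, beginning 250 bases before the start that RefSeq gives, written 5′ to 3′ on the strand of the gene. It therefore ends before that start, and the bases next to the start were not searched. The windows are chr5:35525699-35525876 (minus strand) for Cpz, chr15:85205699-85205876 (plus strand) for Fbln1 and chr12:101819192-101819369 (minus strand) for Fbln5. For Cpz and Fbln5 the RefSeq start differs from the end of the GENCODE gene given with their levels. Capitals mark matches to 5 motifs searched on both strands. TATAAA is the core of the TATA box and GGGCGG that of the GC box bound by Sp1 factors. TGANTCA is the site of AP-1, while GGAATG is that of TEAD factors. AGAACA is an arm of the glucocorticoid receptor site.
Cpz: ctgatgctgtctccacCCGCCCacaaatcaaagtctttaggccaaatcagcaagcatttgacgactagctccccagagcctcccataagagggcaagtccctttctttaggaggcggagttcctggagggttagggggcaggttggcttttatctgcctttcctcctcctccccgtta
Fbln1: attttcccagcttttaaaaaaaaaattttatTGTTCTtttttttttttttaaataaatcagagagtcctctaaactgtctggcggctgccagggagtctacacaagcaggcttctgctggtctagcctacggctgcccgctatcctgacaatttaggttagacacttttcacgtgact
Fbln5: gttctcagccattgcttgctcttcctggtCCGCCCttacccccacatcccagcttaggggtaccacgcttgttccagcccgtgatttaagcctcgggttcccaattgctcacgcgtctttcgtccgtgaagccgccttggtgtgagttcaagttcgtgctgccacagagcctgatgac
Cpz and Fbln5 each held 1 match to GGGCGG, read on the opposite strand, which 20.7% of the 32851 windows of this length in the table also held. Fbln1 held 1 match to AGAACA, read on the opposite strand, which 11.9% of windows held. The letters TATAAA (in 8.29% of windows), the letters TGANTCA (in 4.88%) and the letters GGAATG (in 9.65%) did not occur in these 3 windows. A TATA box nearer the start would not have been seen, so nothing is read from the absence of TATAAA. No letter pattern searched was held by all 3.

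**Figure D2:**
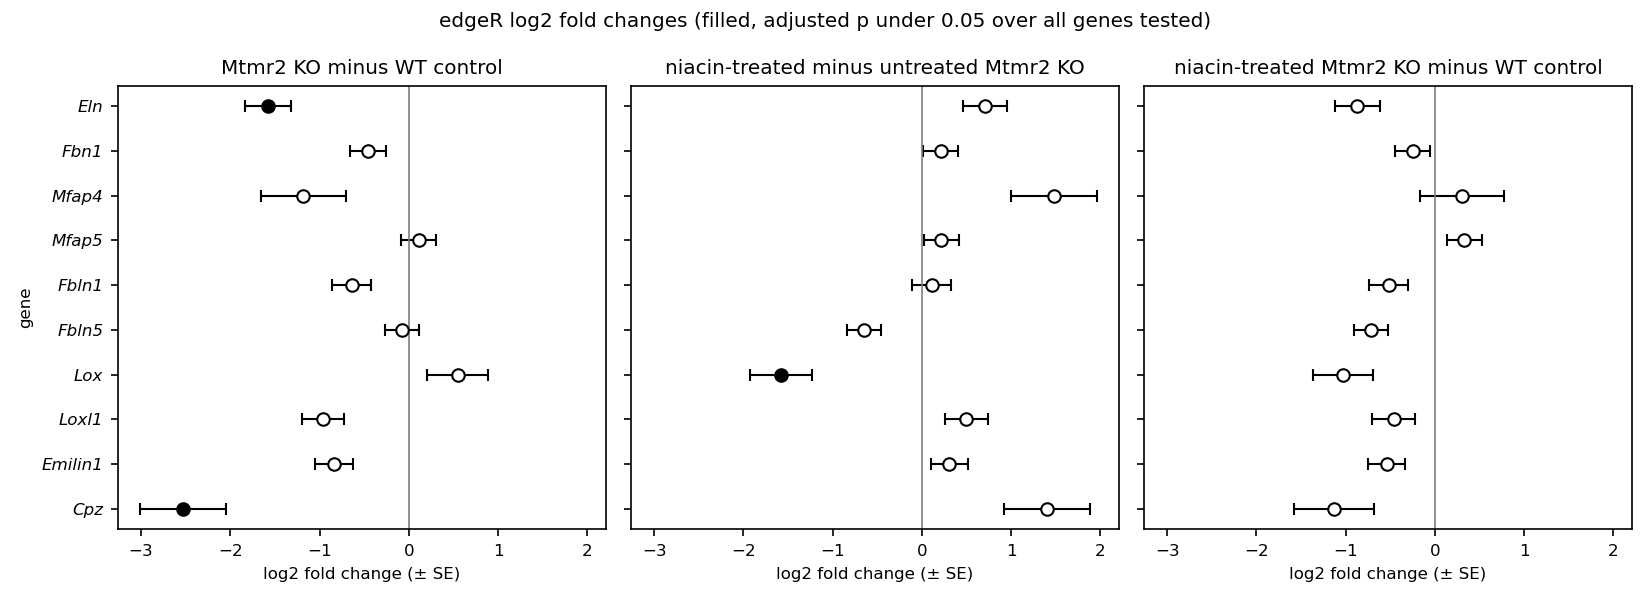
edgeR log2 fold change (horizontal axis, bars ± SE) of each member in the 3 comparisons, with filled points for an adjusted p under 0.05 over all genes tested. Eln (-1.58) and Cpz (-2.53) are filled for Mtmr2 KO minus WT control and Lox (-1.58) for niacin-treated minus untreated Mtmr2 KO.

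The make-up of the set differed between the groups and, within Mtmr2 KO, between libraries. Lox made up 34.8 ± 3.6% of the summed per-kb level of the 10 members in WT control (SD, n = 4), 47.8 ± 17.7% in Mtmr2 KO and 21.5 ± 5.41% with niacin. Its share was 71.5% in library 4503 and 29.6% in library 4504. Eln made up 12.2 ± 1.38% in WT control, 4.23 ± 2.1% in Mtmr2 KO and 8.5 ± 1.07% with niacin, and its shares in the 3 groups did not overlap except through 4504 at 7.26% and 4507 at 7.21%. Mfap5 made up 25.1 ± 2.45%, 28.8 ± 12.4% and 40.5 ± 3.75%. The summed level ran from 480 to 529 CPM per kb in WT control, from 436 to 686 in Mtmr2 KO and from 354 to 439 with niacin. The highest sum was that of 4503, through Lox. Shares and sums rest on merged exon lengths and would differ with the longest transcript. By that length Eln was at 129 CPM per kb in WT control, in place of 61.5.

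**Figure D3:**
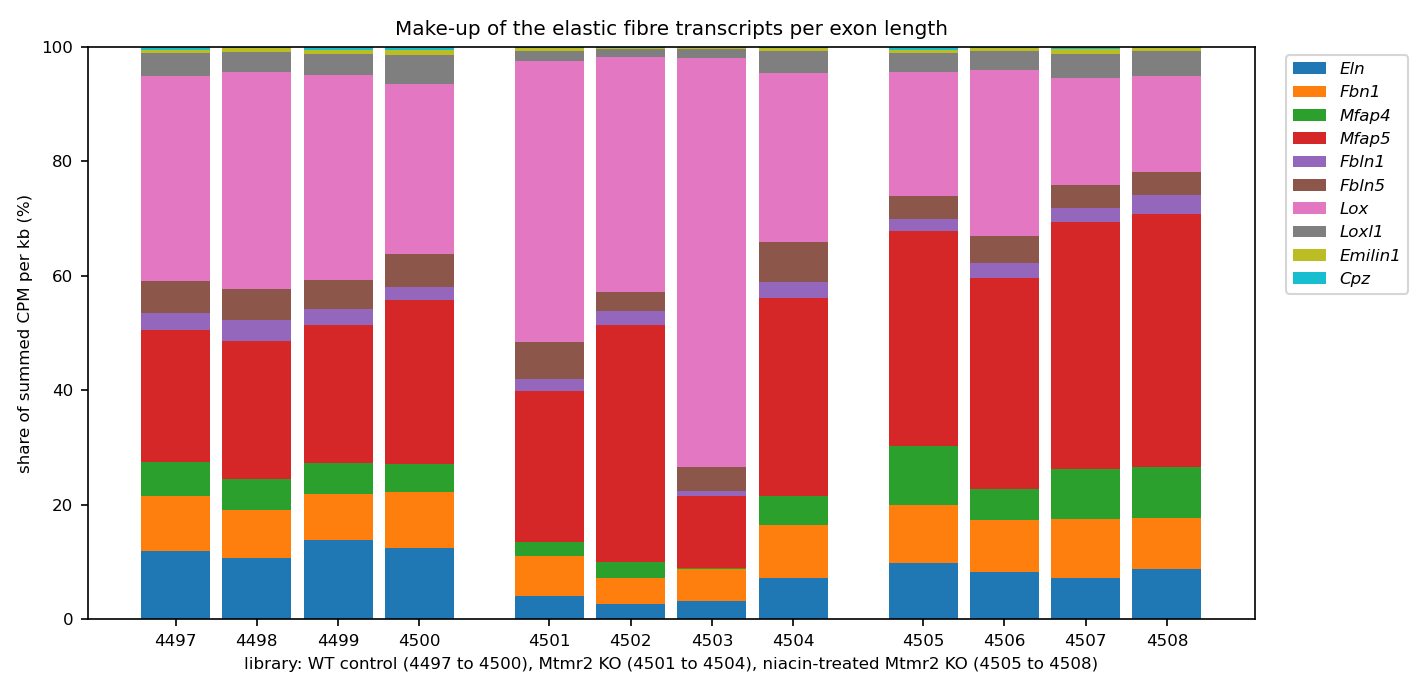
Share (%) of each member in the summed CPM per kb of exon of the 10 members, as stacked bars, 1 bar per library. Lox takes 71.5% of the bar of library 4503 and 16.8% of that of library 4508, and Eln takes between 10.6% and 13.9% in WT control and between 2.56% and 7.26% in Mtmr2 KO.

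Ratios within a library do not depend on its total. The per-kb ratio of Lox to Eln, cross-linker to substrate, was 2.89 ± 0.542 in WT control and 2.56 ± 0.702 in niacin-treated nerve (SD, n = 4). In Mtmr2 KO it was 12.2, 16.1, 23.1 and 4.08, above every library of both other groups. The ratio of Eln to Fbn1, core to scaffold, was 1.37 ± 0.24 in WT control, 0.618 ± 0.112 in Mtmr2 KO and 0.888 ± 0.127 with niacin, where it ran from 0.702 to 0.973 against 0.55 to 0.786 untreated. The ratio of Mfap5 to Mfap4 was 4.73 ± 0.774 in WT control, 20.4 ± 19.6 in Mtmr2 KO and 5.05 ± 1.23 with niacin, and its value in 4503 was 49.5 against 6.82 to 14.1 in the other untreated libraries. The size of these ratios, like the order of the members, depends on the length used. These ratios were formed after the levels were known and carry no test.

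By library, the Mtmr2 KO mice differed more among themselves than the mice of either other group. The median log2 deviation of the 10 members from the WT control mean was -0.60 in 4501, -1.06 in 4502, -1.08 in 4503 and -0.28 in 4504. In the niacin-treated libraries it lay between -0.63 and -0.41, and in WT control between -0.09 and 0.06. Libraries 4502 and 4503 had similar medians. In both, Cpz (-2.69 and -3.45), Eln (-2.38 and -1.52), Emilin1 (-1.45 and -1.31) and Mfap4 (-1.0 and -3.90) were low. Loxl1 (-1.73) and Fbn1 (-1.11) were also low in 4502, and Fbln1 (-1.45) in 4503, where Lox was at 1.5. Between 6 and 9 of the 10 members lay below the lowest WT control library in each Mtmr2 KO library of either group, and 1 or 2 lay above the highest. The share over all genes is not given for these counts, so nothing is read from them.

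**Figure D4:**
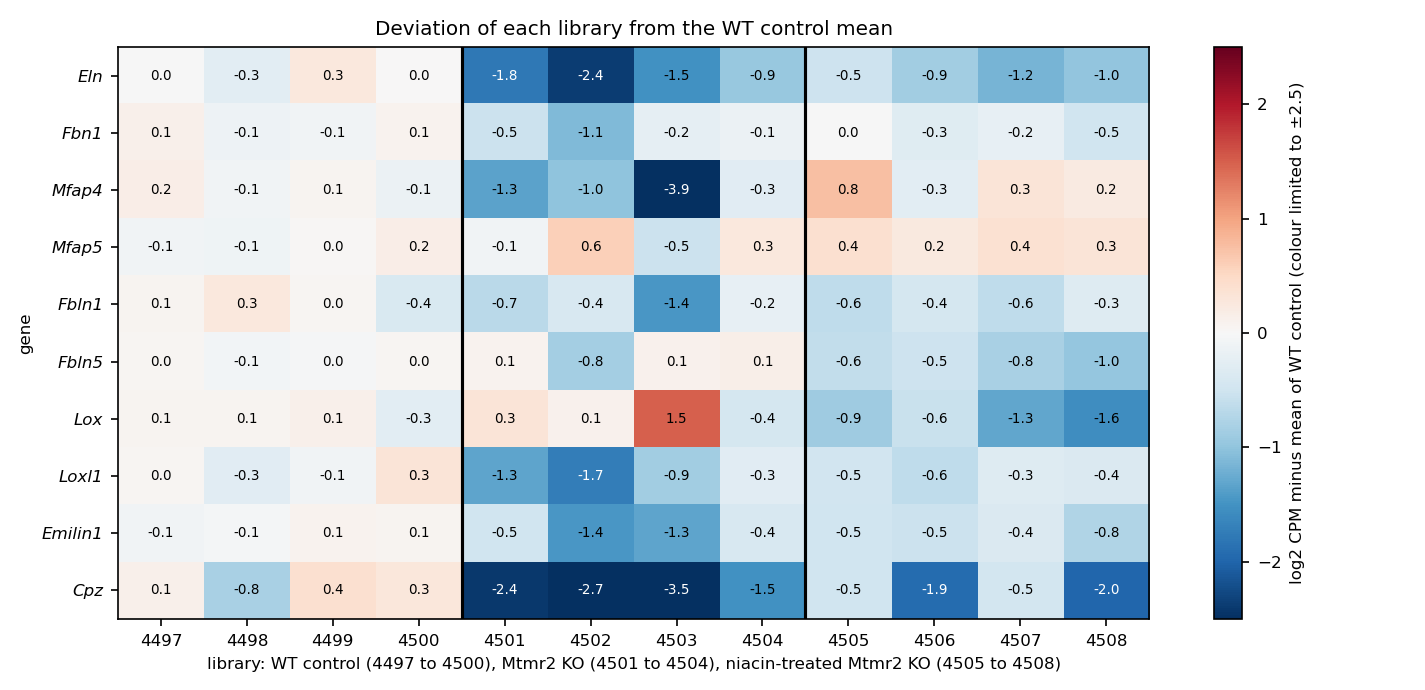
Heat map of the log2 CPM of each member (rows) minus its WT control mean, in each of the 12 libraries (columns), with the value written in each cell. Mfap4 is at -3.90 in library 4503 and Lox at 1.5, and Eln is below 0 in all 8 libraries of the Mtmr2 KO groups.

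Members varied to different degrees with the rest of the set over the 12 libraries. Pearson's r of log2 CPM with the mean z-score of the other 9 members was 0.92 for Emilin1, 0.912 for Eln, 0.898 for Cpz and 0.815 for Loxl1. It was 0.716 for Fbn1, 0.6 for Fbln1, 0.528 for Mfap4 and 0.248 for Fbln5. It was negative for Mfap5 (-0.2) and for Lox (-0.361). These values describe 12 libraries that share their groups and the scaling, with no test.

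Outside the set, Creb3l1, which encodes a membrane-bound transcription factor of secretory cells, had the profile most like the mean z-score of the members (r = 0.968 over 12 libraries, and 0.889 after subtraction of the group means). Its level was 33.1 ± 4.64 CPM in WT control and 14.6 ± 5.01 CPM in Mtmr2 KO, and 19.1 ± 4.51 CPM with niacin (SD, n = 4). Podxl2 (r = 0.96), the collagen receptor gene Antxr1 (0.96), the kinase gene Hunk (0.953) and the phospholipid transfer protein gene Pltp (0.952) followed. After subtraction of group means these lay between 0.9 and 0.929.

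The other genes of elastic fibre biology were taken as a list of 61 genes in 9 roles, of which 60 were tested (Mmp12 was not). None was called by edgeR in any of the 3 comparisons. At an unadjusted p under 0.05 there were 29, 14 and 17 genes, for Mtmr2 KO against WT control, niacin-treated against untreated, and niacin-treated against WT control, where the shares over all genes tested were 17.2%, 20.1% and 24.7%. DESeq2 on all 12 libraries called 7, 8 and 6 of them, against 3.77%, 6.42% and 7.56% of all genes. Limma-voom with quality weights called 0, 7 and 26, against 0.626%, 11.6% and 42.4% of all genes, so that 26 of 60 was close to the share over all genes. In Mtmr2 KO, 44 of the 60 had a negative log2 fold change, against 46% of all genes tested, and 16 a positive one. Their median was -0.38 against 0.03 over all genes tested. Groups did not overlap for 11 genes lower and 0 higher, against 5.46% and 3.85% of all genes. The median was 0.2 for niacin-treated against untreated and -0.23 for niacin-treated against WT control. Without 4503 the values in Mtmr2 KO were 46 negative and 14 positive with a median of -0.39, 27 genes had an unadjusted p under 0.05 (18.2% of all genes), and 15 did not overlap, all lower (7.53%). The median for niacin-treated against untreated was then 0.14, and none was called in either comparison.

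Over all genes tested, 46% were negative in Mtmr2 KO, which is the share to set beside the sign counts of the roles and marker lists there. By role, the 7 latent TGF-beta binding proteins and TGF-beta ligands all had negative log2 fold changes in Mtmr2 KO. Their median was -0.57, and 4 did not overlap with WT control, all lower (5.46% of all genes). Without 4503 all 7 were still negative, with a median of -0.62. The most abundant of them in CPM, Ltbp4, which binds fibulins and guides elastin assembly, was at 245 CPM in WT control, 137 CPM in Mtmr2 KO and 142 CPM with niacin (log2 fold change -0.84 in Mtmr2 KO, adjusted p = 0.0722). Of the 7 genes of other cross-linking steps, 6 had negative values, and Pcolce, an enhancer of procollagen processing, was at 258, 183 and 286 CPM (-0.50, adjusted p = 0.284). All 6 other fibulins and hemicentins were negative with a median of -0.45 (-0.38 without 4503), and Fbln2 was at 208, 166 and 159 CPM (-0.32, adjusted p = 0.398). All 4 other emilins and multimerins were negative, and Emilin2 was at 41.6, 30.1 and 34.1 CPM (-0.46, adjusted p = 0.224).

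In the remaining roles the signs were mixed, and without 4503 the number negative in Mtmr2 KO was 2 of 5, 4 of 6, 5 of 7, 6 of 10 and 6 of 8 in the order in which the roles are described. Of 5 other genes listed by name as microfibril proteins, 2 were negative in Mtmr2 KO, Fbn2 (-0.58) and Mfap2 (-0.72). The 3 positive ones were Mfap1a (0.28), Mfap1b (0.37) and Mfap3, and whether these belong to microfibrils was not checked. Mfap3 was at 35.8, 37.3 and 41.7 CPM (0.06, adjusted p = 0.793). Of 6 ADAMTS and ADAMTS-like genes, 3 were negative, and Adamts10 was at 66.2, 51.8 and 64.5 CPM (-0.35, adjusted p = 0.376). Of 7 proteoglycans and other bound proteins, 6 were negative and Dcn, the proteoglycan decorin, was positive, at 2765, 3780 and 4399 CPM (0.45, adjusted p = 0.419). Of the 10 elastin-degrading enzymes and inhibitors tested, 5 were negative, and Timp2, an inhibitor of metalloproteinases, was at 860, 612 and 534 CPM (-0.49, adjusted p = 0.201). Of 8 integrins and other receptors, 5 were negative, and Itgb1 was at 772, 785 and 859 CPM (0.02, adjusted p = 0.947).

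Markers of cell types that the nerve piece can hold were read in the same libraries, since in bulk tissue fewer cells of a type and less RNA per cell cannot be told apart. The tissue label was met by the myelinating Schwann cell list, whose 7 genes summed to 88724 to 112545 CPM in WT control, 84733 to 116944 in Mtmr2 KO and 61621 to 101370 with niacin. Of these genes, Pmp22, Mbp and Ncmap (named after their values were seen) lay higher without overlap in Mtmr2 KO than in WT control (3.85% of all genes), DESeq2 called 1 there (3.77%), and edgeR and limma-voom called 0, with 1 at an unadjusted p under 0.05 in edgeR (17.2%). In niacin-treated against untreated nerve all 7 had negative log2 fold changes (54.1% of all genes), DESeq2 called 1 (6.42%) and limma-voom 3 (11.6%). Without 4503, 6 were negative and 1 positive in that comparison. No marker was at 0 in all libraries. The 7 epineurial fibroblast genes summed to 450 to 866 CPM in WT control, 105 to 632 in Mtmr2 KO, where 4503 was the lowest, and 485 to 749 in niacin-treated nerve. Their median log2 fold change was -0.77 in Mtmr2 KO and 0.95 in niacin-treated against untreated nerve, with none called by edgeR. In Mtmr2 KO, 2 had an unadjusted p under 0.05 (17.2% of all genes) and DESeq2 and limma-voom called 0 (3.77% and 0.626%), and in niacin-treated against untreated nerve 4 had an unadjusted p under 0.05 (20.1% of all genes) and DESeq2 and limma-voom each called 1 (6.42% and 11.6% of all genes). Without 4503 the medians were -0.49 and 0.67, and 1 and 2 genes had an unadjusted p under 0.05 (18.2% and 13.3% of all genes). The list shares Pcolce2 with the list of elastic fibre biology.

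Of the 6 vascular smooth muscle genes, 5 had negative log2 fold changes in Mtmr2 KO (median -0.83, and -0.88 without 4503), and 4 did not overlap with WT control, all lower (5.46% of all genes). None was called by edgeR in any comparison. In Mtmr2 KO, 3 had an unadjusted p under 0.05 (17.2% of all genes), DESeq2 on all 12 libraries called 3 (3.77%) and limma-voom 1 (0.626%). In niacin-treated Mtmr2 KO against WT control, 3 had an unadjusted p under 0.05 (24.7%), DESeq2 called 1 (7.56%) and limma-voom 2 (42.4%). Their sum, which Tagln leads with 448 CPM in WT control and 614 CPM in Mtmr2 KO, was 628 to 1329 CPM in WT control, 537 to 1521 in Mtmr2 KO and 617 to 1140 with niacin. Of the 7 white adipocyte genes, Lep and Plin1 were called lower in Mtmr2 KO and Lep was called higher in niacin-treated against untreated nerve (named after their values were seen), against 0.220% of all genes lower and 0.695% higher. DESeq2 called 2 in each of these comparisons (3.77% and 6.42% of all genes) and limma-voom 3 and 6 (0.626% and 11.6%). All 7 had negative log2 fold changes in Mtmr2 KO and all 7 positive ones in niacin-treated against untreated nerve, which share the untreated libraries. Over all genes, 46% and 54.1% were negative in these comparisons. Without 4503, 6 were negative and 1 positive in Mtmr2 KO (median -0.35 in place of -0.48), and 7 were positive in the other comparison. The sum ran from 2586 to 3406, 754 to 4564 and 2167 to 4417 CPM. The 6 skeletal muscle genes (5 tested) summed to 28.5 to 63 CPM in WT control, 23.9 to 54 in Mtmr2 KO and 66.1, 2647, 2399 and 82 CPM in niacin-treated libraries 4505 to 4508, and 3 (Acta1, Ckm and Tnnt3, named likewise) were called higher against untreated nerve (0.695% of all genes). DESeq2 called all 5 in both niacin comparisons (6.42% and 7.56%), and limma-voom 1 against untreated nerve and 5 against WT control (11.6% and 42.4%). Without 4503 edgeR called no gene of these 2 lists in Mtmr2 KO or in niacin-treated against untreated nerve.

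The sums of the other lists, in the order WT control, Mtmr2 KO and niacin-treated, were 466 to 511, 201 to 578 and 223 to 353 CPM for 6 endothelial genes. For 6 tendon and fascia genes they were 407 to 517, 293 to 632 and 265 to 442 CPM. For 5 endoneurial fibroblast genes they were 245 to 306, 244 to 282 and 259 to 427 CPM, and for 6 perineurial genes 942 to 1293, 944 to 1307 and 775 to 1020 CPM. For 5 macrophage genes they were 330 to 386, 296 to 613 and 401 to 614 CPM. None of these genes was called by edgeR in any comparison. In Mtmr2 KO against WT control, 2 endothelial, 1 tendon and fascia and 2 endoneurial genes had an unadjusted p under 0.05 (17.2% of all genes), and DESeq2 on all 12 libraries called 1, a tendon and fascia gene (3.77%). Without 4503 there were 4, 1 and 2 (18.2%), and 1 perineurial gene. In Mtmr2 KO against WT control, 1 endothelial and 1 tendon and fascia gene lay lower without overlap (5.46%) and 1 endoneurial gene higher (3.85%). Leaving out 4503 gave 4, 1 and 1 (7.53% lower, 5.53% higher), and 1 perineurial gene lower. All 6 endothelial genes were negative with and without 4503, with medians of -0.41 and -0.59. Their sums in 4501 to 4504 were 420, 201, 578 and 289 CPM. In niacin-treated against untreated nerve the counts at an unadjusted p under 0.05 were 1 endothelial, 2 tendon and fascia, 3 endoneurial, 3 perineurial and 2 macrophage genes (20.1%). DESeq2 called 1 endothelial, 1 endoneurial and 1 perineurial gene there (6.42%), and limma-voom 1, 1 and 3 (11.6%). In niacin-treated Mtmr2 KO against WT control, 4 endothelial, 1 tendon and fascia, 2 endoneurial, 2 perineurial and 1 macrophage gene had an unadjusted p under 0.05 (24.7%). There 3 endothelial, 2 perineurial, 1 endoneurial and 1 tendon and fascia gene lay lower without overlap (16.6%), and 2 macrophage genes higher (14.9%). DESeq2 called 3 endothelial, 1 tendon and fascia, 1 endoneurial and 2 perineurial genes in that comparison (7.56%). Limma-voom called 4, 3, 2 and 3 of these lists and 3 macrophage genes (42.4%). The part of any of these cell types in the levels of the elastic fibre genes was not tested.

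**Figure D5:**
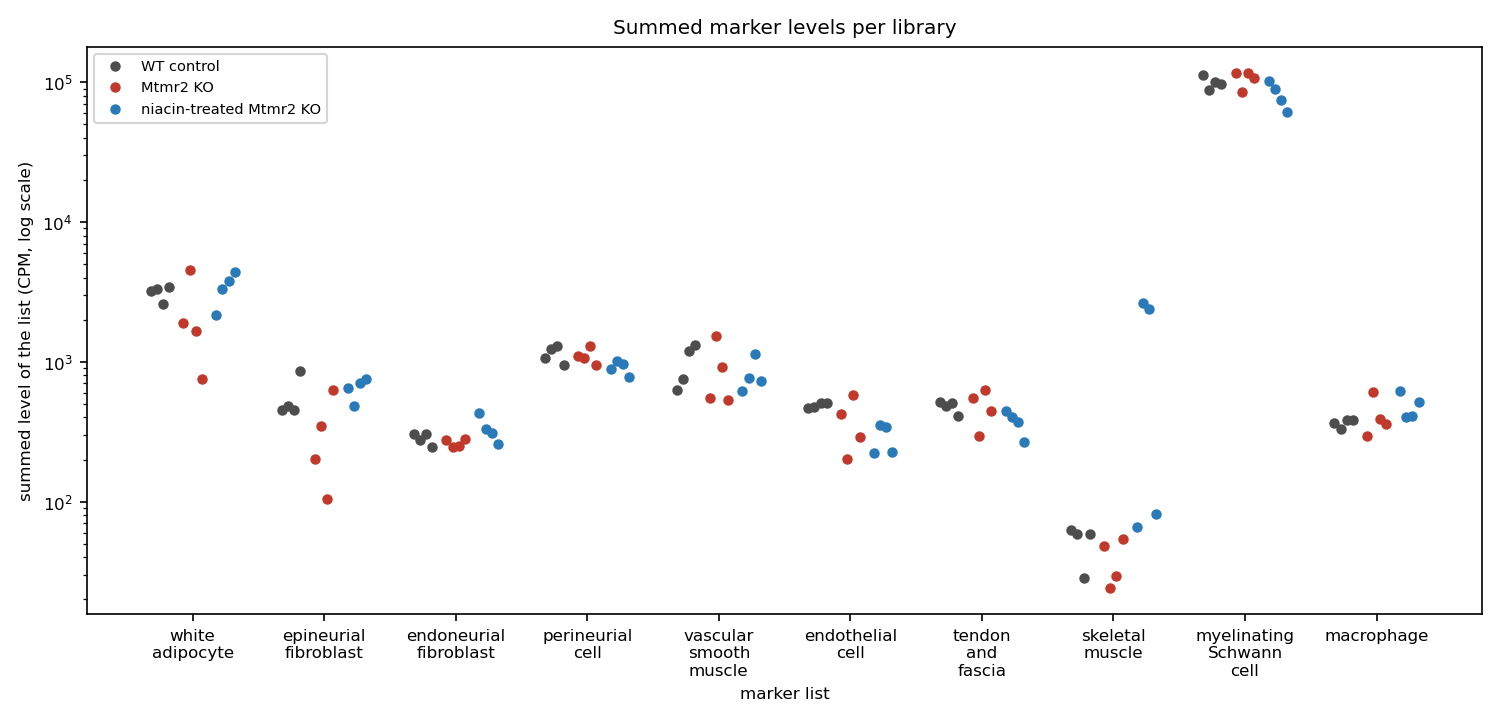
Summed level (CPM, log axis) of 10 lists of cell type markers in each library, as points coloured by group. The epineurial fibroblast sum ranges from 105 to 632 CPM in Mtmr2 KO against 450 to 866 CPM in WT control, and the skeletal muscle sum reaches 2647 CPM in a niacin-treated library.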

How the data were processed

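Sciatic nerve RNA selected for polyA tails was sequenced by the authors on an Illumina HiSeq instrument. Per the submitters' processing notes, CASAVA 1.9, STAR and DESeq2 were used with GRCm38. The sources used here do not give the version of STAR, the annotation release, the program that counted reads or its use of strand. The authors deposited whole-number read counts per Ensembl gene, without normalization, and tables of DESeq2 fold changes and p-values. Of these tables only the gene symbols were used (42615 genes). All columns of counts were used.

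Differences between groups were tested with edgeR 4.0.16 in R 4.3.3. Low counts were removed by filterByExpr, libraries were TMM-scaled, and a quasi-likelihood fit of all 12 libraries, with no covariate, gave the 3 comparisons (two-sided). A gene was called when its p, adjusted by Benjamini-Hochberg over all 17257 genes tested, was under 0.05. The SE is the size of the log2 fold change divided by the square root of F. CPM and log2 CPM (prior count 2) were computed from the counts. Exon lengths and coordinates came from GENCODE vM21 (GRCm38), with all exons of a gene merged. The replicates are separate mice, so p-values set a difference between groups against the spread between mice. In the fit of all 12 libraries that spread is estimated over all 3 groups, also for a comparison that leaves a group out. With 4 libraries per group, 5% of groups would pass the check for an outlying library by chance.

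The members, the list of 61 related genes, the marker lists and the tests were chosen with earlier results of these data known. Named genes are the members, Mtmr2, the 5 genes with the profile most like the members, and genes of the lists. From the list of 61 they are genes that were called or else the one with the most CPM in its role over all 12 libraries. All genes of the role of other microfibril proteins were also named, after their values were seen. From the marker lists they are those with the most CPM, not all of which are reported. Lep, Plin1, Acta1, Ckm, Tnnt3, Pmp22, Mbp and Ncmap fall outside that rule or were named after their values were seen, because they were called or did not overlap.

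Alternatives were DESeq2 1.42.0 (all 12 libraries, or the 2 groups compared), limma 3.58.1 (voom with sample quality weights), edgeR on the 2 groups, DESeq2 size factors in edgeR, an open filter (any gene with 1 count or more), a strict filter (10 counts or more in each library), a covariate for Xist (log2 CPM), and each library left out in turn. Values of the gene lists without library 4503 were added after the data were seen. The fits were tested on simulated data. The promoters printed were read from RefSeq's table for GRCm38.p6. Protein sequences were not used here.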

Additional observations from a re-analysis of the deposited data

Results flagged for a closer look

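In 2 of 30 sets of 4 libraries (10 members in 3 groups), 1 library stood apart from the other 3 by more than the 95% critical value of Dixon's test, which chance passes in about 5% of sets. Fbln5 was at 105 CPM in Mtmr2 KO library 4502, against 200 to 210 CPM in the other 3 untreated libraries, a gap of 0.91 of the range. Without 4502 the log2 fold change of Fbln5 for niacin-treated against untreated nerve was -0.85 (edgeR, adjusted p = 0.0037) in place of -0.65 (0.0974), and that for Mtmr2 KO against WT control was 0.11 in place of -0.08. Lox was at 691 CPM in WT control library 4500, against 871 to 904 CPM in the other 3, a gap of 0.846 of the range. Without 4500 the log2 fold change of Lox for Mtmr2 KO against WT control was 0.47 in place of 0.55. Lox in library 4503 (2346 CPM) and Mfap4 in the same library (3.37 CPM) did not pass this check, since the other 3 untreated libraries were themselves spread.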

How the results depend on the processing

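The median log2 fold change of the members kept its sign in each of the 3 comparisons under all 20 alternatives. It ran from -0.92 (without 4504) to -0.61 (limma-voom) in Mtmr2 KO against WT control, from 0.22 (limma-voom) to 0.41 (without 4504) in niacin-treated against untreated nerve, and from -0.58 to -0.51 in niacin-treated Mtmr2 KO against WT control. The calls of single members changed. Of 2 members called in Mtmr2 KO against WT control, 4 were called by DESeq2 on all 12 libraries, 4 under the open filter, 1 by limma-voom, 1 with the Xist covariate and 0 by edgeR on the 2 groups (against 3.77%, 1.01%, 0.626%, 0.0695% and 0% of all genes), and the count ran from 0 to 4 with libraries left out (3 without 4501 and 4 without 4504, in fits that called 2.6% and 1.54% of all genes). Of 1 called in niacin-treated against untreated nerve, there were 3 by DESeq2 on all 12 libraries, 3 by limma-voom, 2 under the open filter, and 0 by edgeR on the 2 groups or with the Xist covariate (against 6.42%, 11.6%, 1.69%, 0% and 0.290% of all genes), and from 0 to 4 with libraries left out (2 without 4502 and 4 without 4504, against 23.6% and 2.87% of all genes). Of 0 called in niacin-treated Mtmr2 KO against WT control, there were 3 by DESeq2 on all 12 libraries, 8 by DESeq2 on the 2 groups, 7 by limma-voom and 8 by edgeR on the 2 groups (against 7.56%, 37.8%, 42.4% and 33.9% of all genes), and from 0 to 4 with libraries left out (4 without 4502 and 1 without 4503, against 21.6% and 1.74% of all genes). The cause was not tested. Fewer libraries enter the fits of 2 groups. The sign of a member turned in 5 cases, all with log2 values near 0. For Mtmr2 KO against WT control these were Fbln5 (0.06 in limma-voom, and from -0.17 to 0.11 with libraries left out) and Mfap5 (from -0.09 to 0.27), and for niacin-treated against untreated nerve Fbln1 (-0.01 in limma-voom, and from -0.08 to 0.28), the values of the other sign arising without 4502 for Fbln5 and Mfap5 and without 4503 for Fbln1.
No paired analysis was possible because the replicate numbers of the labels run on across the groups and pair no mice. Counting error is small for all members except Cpz, which had as few as 13 counts in a library. Reads shared with overlapping genes could not be assigned by strand here.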
